A study of Mus musculus with 6 samples.

Results

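Cytosolic ribosomal proteins are the protein part of the 40S and 60S ribosomal subunits. Their transcripts were followed in mouse RNA-seq libraries labelled as regulatory T (Treg) cells without and with TNFR2. The members were the protein-coding rows of the gene table whose symbol begins with Rpl or Rps followed by a digit, a or p. Kinases of the Rps6k family, pseudogenes named with -ps, and Rps19bp1, which is no ribosomal protein, were left out. This gave 84 genes of 32377 in the table, with 51 of the large subunit and 33 of the small subunit. They lie on 19 chromosomes, with 4 on the X chromosome.

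The study compared 3 libraries labelled TNFR2-deficient Treg with 3 labelled TNFR2 positive Treg, and its title concerns TRIP13, HAT1 and the expansion of Foxp3-positive regulatory T cells. TNFR2 is a receptor for tumour necrosis factor encoded by Tnfrsf1b. The labels name no tissue, strain, age, allele or sort, and do not say whether the libraries came from separate animals, so a p-value here speaks only for the variation among the 6 libraries, part of which may be technical. Total RNA was taken with TRIzol, polyadenylated RNA was captured with oligo-dT, and genes were counted to totals of 19296082 to 24038118 per library. A floor of 3 counts therefore stood at 0.125 to 0.155 CPM, the unit that scales counts to each library's total, and this floor covers counting error only.

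Ribosomal protein messages are short, abundant and made from many separate genes, and the cell assembles their products with ribosomal RNA in about equal numbers. Most begin with a run of pyrimidines at the start of transcription, called a 5′ terminal oligopyrimidine (TOP) tract, through which the kinase mTORC1 and the protein LARP1 set how well they are translated and how long they last. MYC raises transcription of the same genes when lymphocytes grow and divide. In T cells and thymocytes this group is known above all for its rise with growth and for the part of single members, such as Rpl22, in T cell development.

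The labels were checked first. Tnfrsf1b measured 8.30, 7.99 and 7.32 CPM where TNFR2 was labelled deficient, against 84.6, 84.2 and 80.2 CPM where it was labelled positive, so the libraries fell on the sides their labels give. Foxp3, which defines Treg cells, averaged 1.44 CPM in the deficient group against 75.5 CPM in the positive group. Of 15 Treg genes, 14 were lower and 0 higher in the deficient group. The summed level of all 15 was 231.4 to 260.1 CPM against 880.8 to 923.9 CPM. Most of the deficient sum was Capg, the listed gene that was not lower, which averaged 191.8 CPM against 171.2 CPM. The sum therefore understates the fall of the other genes. All 12 markers of double-positive thymocytes, the immature T cells that rearrange antigen receptors, were higher in the deficient group. Their summed level was 3879 to 4005 CPM against 487.2 to 500.4 CPM, and Rag1, a gene of receptor rearrangement, averaged 917.9 CPM against 3.31 CPM. The Treg label of the deficient libraries therefore goes against their Foxp3 level, and they are called here only by their TNFR2 label. Erythroid markers (7 of 7 higher) summed to 18070 to 20620 CPM against 4236 to 7010 CPM. Myeloid markers (7 of 11 higher, 0 lower) summed to 951.4 to 1031 CPM against 478.1 to 535 CPM, and B cell markers (4 of 8 higher, 2 lower) to 7457 to 7801 CPM against 6225 to 6371 CPM. NK and cytotoxic markers (8 of 8 lower) summed to 68.5 to 69.8 CPM against 196.2 to 209.4 CPM. No marker of these lists was at 0 in a whole group. These marker differences lie between the same groups that every comparison given here uses, and their part in the results was not tested. In bulk RNA a change in the mix of cells and a change in RNA per cell cannot be told apart.

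The start sites of some members with great rises and of some that did not pass the test are shown here. Rps10, which rose most, is not shown, and Rpl3, which changed least, had no entry. Each stretch is from RefSeq on GRCm38.p6, runs 5′ to 3′ on the gene's strand, and covers 40 bases before the annotated start and the first 20 bases of the transcript. The first pair is Rps27 (chr3:90213629-90213688, minus strand) and its retrogene copy Rps27rt (chr9:114982720-114982779, minus strand), whose longest shared run, 19 bases at the start, is in capitals. The run opens with the pyrimidines of a TOP start.
Rps27: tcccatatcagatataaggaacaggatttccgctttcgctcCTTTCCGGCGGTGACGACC
Rps27rt: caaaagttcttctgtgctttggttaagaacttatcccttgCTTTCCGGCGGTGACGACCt

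Next are 3 further members with great rises and 3 that did not pass the test. They are Rps27l (chr9:66946046-66946105, plus), Rps21 (chr2:180257339-180257398, plus), Rpl37a (chr1:72711220-72711279, plus), Rpl4 (chr9:64173347-64173406, plus), Rps2 (chr17:24720023-24720082, plus) and Rpsa (chr9:120127726-120127785, plus). Capitals mark the ETS-family letters CCGGAAG, the pyrimidine run CTTTCC or the SP1 letters GGGCGG, on either strand.
Rps27l: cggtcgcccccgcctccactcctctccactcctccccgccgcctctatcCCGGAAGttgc
Rps21: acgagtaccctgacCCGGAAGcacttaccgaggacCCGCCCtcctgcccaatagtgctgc
Rpl37a: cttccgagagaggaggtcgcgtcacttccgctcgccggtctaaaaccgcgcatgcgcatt
Rpl4: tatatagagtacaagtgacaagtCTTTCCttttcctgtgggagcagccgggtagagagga
Rps2: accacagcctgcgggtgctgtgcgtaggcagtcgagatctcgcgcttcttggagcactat
Rpsa: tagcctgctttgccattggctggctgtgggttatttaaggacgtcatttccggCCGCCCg

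Over windows of 250 bases before to 50 after the start, 64 of the 84 members had an entry, with 76 windows in all. Searched on both strands, CTTTCC was in 50% of the members' windows and in 26.6% of all 32851 windows of that length. Within 20 bases of the start the shares were 15.8% and 3.7%. CCGGAAG was in 35.5% against 8.9%, AAGATGGC (YY1) in 10.5% against 2.7% and GGGCGG in 59.2% against 35.7%. The TATA letters TATAAA were in 9.2% against 13.6%, and the E-box CACGTG, which MYC can bind, in 10.5% against 7.2%. The members thus held the pyrimidine run, CCGGAAG, AAGATGGC and GGGCGG in a greater share of windows than all genes did, while TATAAA was the less frequent. These are matches of letters, not measured binding.

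Ribosomal protein transcripts were more abundant in the TNFR2-deficient libraries nearly throughout the family, mostly by a small amount. Of 84 members, 82 passed the filter on low counts, and 76 of these rose and 0 fell (edgeR's quasi-likelihood test, Benjamini-Hochberg adjusted p under 0.05). That is 92.7% of the tested members, where 35.1% of all 17022 tested genes were higher and 34.2% lower. All 82 fitted log2 fold changes were above 0, so 0 fell at an unadjusted p under 0.05 too, and DESeq2 and limma-voom also called 0 lower. Their median was 0.35, a 1.27-fold difference, against 0.04 over all tested genes. The median stood at percentile 67.5 of all tested genes, so many single genes changed by more. The middle 50% of the members lay between 0.29 and 0.40, and 62 members lay within 0.1 of the median. The SD over members was 0.191, or 0.109 without Rps10, beside a median SE of 0.0786 for a single member.

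**Figure D1:**
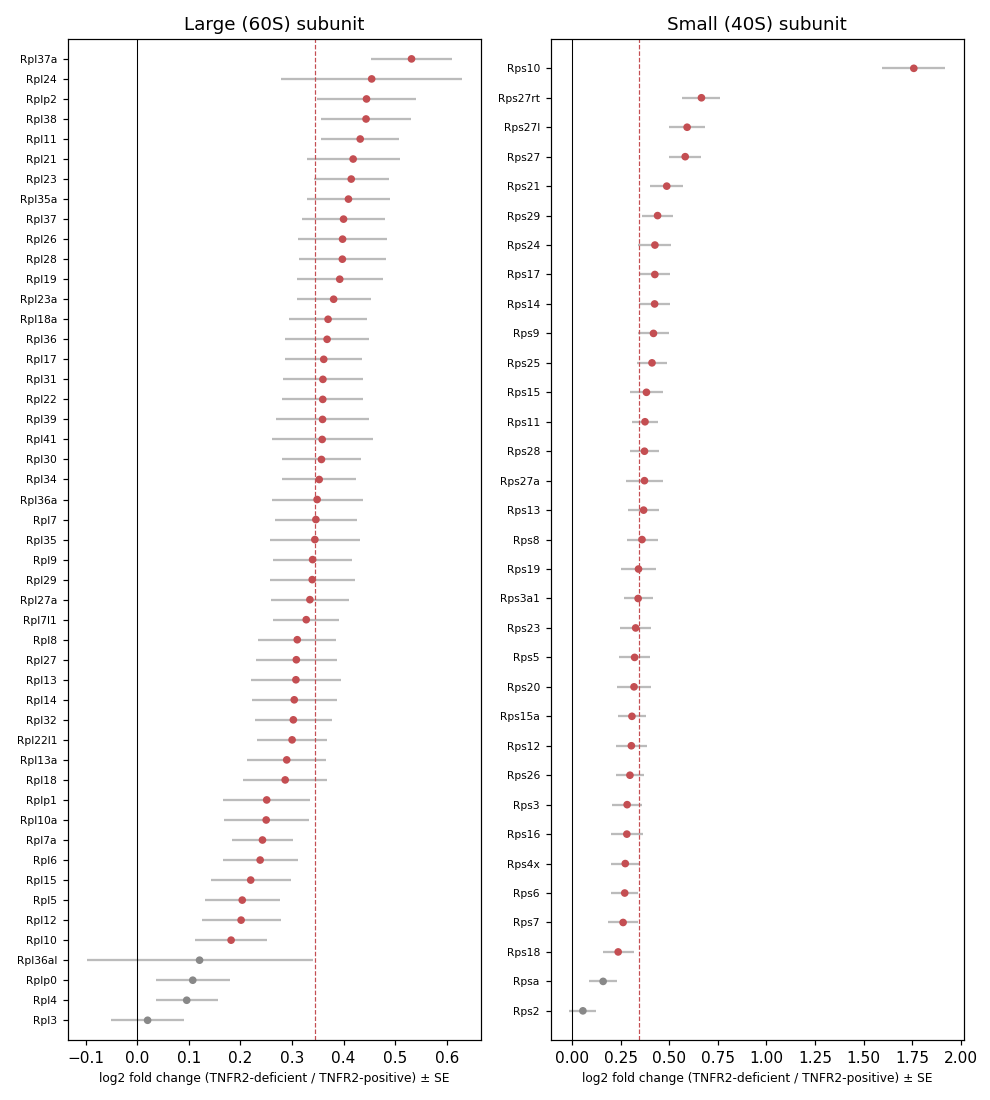
Log2 fold change (TNFR2-deficient over TNFR2-positive) of the 82 tested members, sorted within the large and the small subunit; points are edgeR estimates, bars ±1 SE, red passes the adjusted p threshold and grey does not. The axes of the panels differ, the dashed line is the median of 0.35, and Rps10 at 1.76 stands far to the right of the rest.

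In 76 members all 3 deficient libraries lay above all 3 positive ones, where 38.2% of all tested genes did. These were 75 of the 76 called members, without Rpl24, plus Rpsa. The libraries kept a common order: deficient library 2 was the highest of its group for 80 of 82 members, positive library 1 the lowest for 79 and positive library 3 the highest for 73. The median deviation of the members from their mean over the 6 libraries was 0.13, 0.25 and 0.13 log2 units in deficient libraries 1 to 3, and -0.35, -0.12 and -0.05 in positive libraries 1 to 3. The members of 1 library thus moved together, and positive library 1 stood apart. Without it the median log2 fold change was 0.26, 76 members were higher, and 75 of these were among the 76 above. Without deficient library 2, 62 members were higher.

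The members' share of all counts was 7.22%, 7.76% and 7.23% in the deficient libraries and 5.29%, 6.29% and 6.51% in the positive ones. The groups did not overlap, with means of 7.40% ± 0.306 and 6.03% ± 0.649 (SD, n = 3 each), a difference of 1.38 percentage points (two-sided exact permutation test, p = 0.1, the smallest that 3 against 3 can give). Without positive library 1 the difference was 1.01 points. Large subunit genes held 3.91% ± 0.162 against 3.22% ± 0.333 and small subunit genes 3.50% ± 0.144 against 2.80% ± 0.317 (SD, n = 3 each, exact permutation p = 0.1 for both). Mitochondrially encoded genes also took a greater share, 6.29% against 5.001%, as did globin genes, 1.89% against 0.592%. With the mitochondrial and globin counts taken out of every total, the members' difference was 1.68 points; a greater value follows from the arithmetic, since those counts took more of the deficient libraries.

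**Figure D2:**
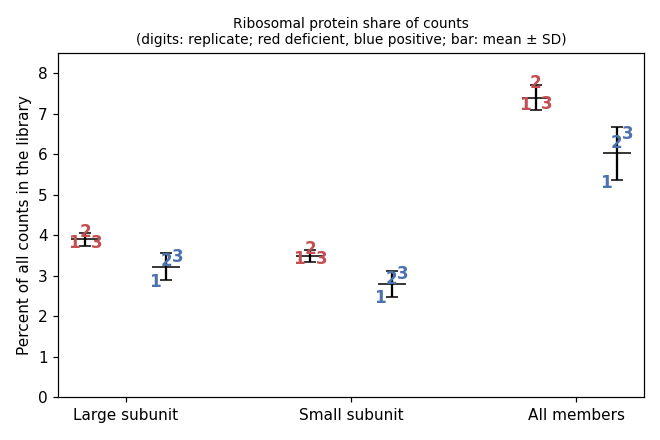
Percent of all counts in each library that fell on large subunit, small subunit and all member genes; digits are replicate numbers, red is TNFR2-deficient, blue TNFR2-positive, and bars are mean ± SD (n = 3). For all members the deficient libraries lie between 7.22% and 7.76% and the positive ones between 5.29% and 6.51%.

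The subunits differed little from each other. Of 49 tested large subunit genes 45 rose, with a median log2 fold change of 0.34 (range 0.02 to 0.53). Of 33 small subunit genes 31 rose, with a median of 0.36 (range 0.06 to 1.76). The ratio of large to small subunit counts was 1.120, 1.118 and 1.116 in the deficient libraries and 1.161, 1.159 and 1.132 in the positive ones. These ranges did not overlap (1.118 ± 0.00198 against 1.15 ± 0.0164, SD, n = 3, exact permutation p = 0.1, the smallest possible), so the small subunit held a slightly greater part of the counts in the deficient group.

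Levels can be compared between genes only per length, as CPM per kilobase of the principal transcript. On that scale the median member stood at 1038 in the deficient and 845.2 in the positive group. Rps27, a zinc-finger protein of the small subunit, was the highest in both groups, at 4076 and 2723. Rps14, a small subunit protein whose loss underlies the anaemia of 5q- syndrome, stood at 2712 and 2020. Rps3a1, at 2588 and 2045, was below Rps14 in the deficient group and above it in the positive group, by less than the spread between libraries. Rps14 rose from 1206 ± 127.4 to 1619 ± 85.89 CPM (SD, n = 3), a log2 fold change of 0.43 (SE 0.0787, edgeR adjusted p = 0.000465). Rps3a1 rose from 1998 ± 199 to 2529 ± 92.17 CPM, by 0.34 (SE 0.0744, edgeR adjusted p = 0.00151). At the other end, 5 members were under 20 CPM in the positive group: Rps10, Rpl24, Rpl36al, Rpl39l and Rpl3l. The 75 members with at least 100 CPM there had log2 fold changes of 0.02 to 0.58.

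The 6 greatest rises were Rps10, Rps27rt, Rps27l, Rps27, Rpl37a and Rps21, of which 5 encode small subunit proteins. Rps27 was at 1370, 1466 and 1383 CPM in the deficient libraries and at 812.2, 1011 and 994.7 CPM in the positive ones. Every deficient library lay far above every positive one, a log2 fold change of 0.58 (SE 0.0813, edgeR adjusted p = 5.49e-05). Rps27rt, the retrogene shown above, was at 75.6, 76.3 and 70.2 CPM against 38.4, 50.5 and 51.3 CPM, a change of 0.67 (SE 0.0977, edgeR adjusted p = 8.03e-05). Positive library 1 was the lowest for both genes. Of the 50-base words of the Rps27 transcript 98.6% occur in another gene, Rps27rt first among these, and 91.1% of those of Rps27rt, so their counts can be split between them and each value is uncertain. Rps27l, a p53-induced paralog with only 22.4% of its words shared, was at 33.2, 36.6 and 32.4 CPM against 19.9, 22.5 and 25.5 CPM. Its log2 fold change was 0.59 (SE 0.0919, edgeR adjusted p = 0.000123), near that of Rps27, and no value of 1 group reached the other.

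Rpl37a, a zinc-finger protein of the large subunit, was at 793.8, 838.5 and 752 CPM in the deficient libraries and at 506.9, 614.8 and 527.7 CPM in the positive ones. It led the large subunit at 0.53 (SE 0.0776, edgeR adjusted p = 7.74e-05). Rps21, a protein of the small subunit, was at 456.4, 484.7 and 430.2 CPM against 283, 335.8 and 359.7 CPM, a change of 0.49 (SE 0.0851, edgeR adjusted p = 0.000301). Neither gene's groups overlapped.

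Rps10, a protein of the small subunit, had the greatest fitted change but few counts. It was at 11.8, 10.3 and 12.1 CPM against 2.49, 3.58 and 4.12 CPM, from 794 counts in the deficient and 216 in the positive group, a log2 fold change of 1.76 (SE 0.162, edgeR adjusted p = 2.14e-06). Of its 50-base words 70.3% occur elsewhere, and 28.7% of its exonic bases overlap other genes, among them the readthrough gene RPS10-NUDT3. The pseudogene row Rps10-ps2 held 3953, 4053 and 4065 counts in the deficient libraries and 2878, 2756 and 2999 in the positive ones, far more than Rps10 itself. With the pseudogene counts added to the parent, the log2 fold change of Rps10 was 0.44, within the range of the other members. The part of read assignment in the greater value was not tested further. Rpl24, a large subunit protein, was also low, at 5.54 against 4.04 CPM (log2 fold change 0.45, edgeR adjusted p = 0.0363), with 81.7% of its words shared and 47% of its exonic bases under Gm28037. Its groups overlapped, and it was named after its values were seen.

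Of the tested members 6 did not pass the threshold: Rpl3, Rps2, Rpl4, Rplp0, Rpl36al and Rpsa. Of these, 5 are among the abundant members with long transcripts. Rpl3, a large subunit protein that reaches the peptidyl transferase centre, was at 1353, 1474 and 1336 CPM in the deficient libraries and at 1245, 1397 and 1464 CPM in the positive ones. Its groups lay over each other, with a log2 fold change of 0.02 (SE 0.0714, edgeR adjusted p = 0.812). Rps2, a small subunit protein at the mRNA entry channel, was at 1102, 1193 and 1122 CPM against 996.5, 1119 and 1172 CPM (0.06, SE 0.0696, edgeR adjusted p = 0.49). Rpl4, which lines the exit tunnel, was at 2223, 2272 and 2173 CPM against 1956, 2099 and 2183 CPM (0.10, SE 0.0603, edgeR adjusted p = 0.174). In both genes positive library 1 was the low value and positive library 3 reached into the range of the deficient ones. The signs of Rpl3, Rps2, Rpl4 and Rplp0 turned with offsets for gene length, to log2 values of -0.06, -0.07, -0.03 and -0.02, and Rpl3 turned with RLE scaling too, to -0.01.

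The ratio of Rpl3 to Rps27 counts, picked after the values were seen from the ends of the family, is given as a description with no test. Rpl3 had 98.7%, 100.6% and 96.6% of the counts of Rps27 in the deficient libraries and 153.3%, 138.1% and 147.1% in the positive ones. The means were 98.6% ± 1.97 and 146.2% ± 7.62 (SD, n = 3). A ratio within a library does not depend on scaling.

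The stalk of the large subunit, which recruits elongation factors, is built from Rplp0, its base, and the acidic proteins Rplp1 and Rplp2. Rplp0 was at 1386, 1516 and 1427 CPM against 1208, 1396 and 1414 CPM and did not pass (0.11, SE 0.0713, edgeR adjusted p = 0.196). Rplp1 was at 568.3, 629.6 and 568.1 CPM against 427.2, 528.1 and 528.7 CPM (0.25, SE 0.0845, edgeR adjusted p = 0.0193). Rplp2 was at 432.6, 477.8 and 418.2 CPM against 273.2, 341.3 and 362 CPM (0.44, SE 0.0954, edgeR adjusted p = 0.00132). The acidic proteins thus rose while the base did not pass the test, and whether they differ from it was not tested. Rpsa, a small subunit protein also known as a laminin receptor, was at 1786, 1961 and 1791 CPM against 1485, 1709 and 1762 CPM. Its lowest deficient library lay just above its highest positive one, and it did not pass (0.16, SE 0.0736, edgeR adjusted p = 0.0711).

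Several members have known roles outside the ribosome. Rpl5 and Rpl11 bind MDM2 together with 5S ribosomal RNA and so stabilise p53. Rpl11 was at 943.9, 989.6 and 964.2 CPM against 631.8, 737.4 and 778.4 CPM (0.43, SE 0.0754, edgeR adjusted p = 0.000298). Rpl5 was at 1766, 1900 and 1735 CPM against 1413, 1582 and 1695 CPM (0.20, SE 0.073, edgeR adjusted p = 0.026). The rise of Rpl5 was the smaller, and it missed the threshold with RLE scaling (0.17) and without deficient library 1, 2 or 3 or positive library 2, where its log2 fold change was 0.21, 0.15, 0.22 and 0.21. Rps6, the target of the S6 kinases, was at 1827, 1900 and 1805 CPM against 1397, 1531 and 1656 CPM (0.27, edgeR adjusted p = 0.00384). Its groups were well apart.

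Rps19, the protein most often lost in Diamond-Blackfan anaemia, rose from 530.5 ± 66.07 to 672.4 ± 46.26 CPM (SD, n = 3), by 0.34 (edgeR adjusted p = 0.00439). Rps3, which can also act beside NF-kappaB, rose from 1417 ± 147.1 to 1725 ± 94.26 CPM, by 0.28 (edgeR adjusted p = 0.00679). Rpl10a and Rpl38, both tied to the translation of particular mRNAs, rose from 593 ± 60.84 to 705.2 ± 53.88 CPM and from 171.6 ± 19.79 to 233.4 ± 17.76 CPM. Their log2 fold changes were 0.25 (edgeR adjusted p = 0.0172) and 0.44 (edgeR adjusted p = 0.000689). Rps3, Rpl10a and Rplp1 missed the threshold without deficient library 2, at 0.23, 0.18 and 0.19. Without positive library 1 Rpl10a, Rplp1 and Rpl5 were at 0.16, 0.15 and 0.13, still past the threshold. Rpl13a, a translational silencer in interferon-treated monocytes, was low for this family, at 39.1 ± 2.05 against 32 ± 2.72 CPM (0.29, edgeR adjusted p = 0.00489), with 35.4% of its exonic bases under other genes. The 52 tested members outside the naming rule all rose, by 0.18 to 0.45.

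Most detected paralogs rose beside their parent genes. Rpl22, whose loss stops the development of alpha-beta T cells, was at 480.1, 505 and 486.3 CPM in the deficient libraries and at 334.9, 392.3 and 419.5 CPM in the positive ones (0.36, SE 0.0781, edgeR adjusted p = 0.00143). Its paralog Rpl22l1, which Rpl22 represses, was at 132.9, 137.2 and 128.9 CPM against 98.4, 112.2 and 113.6 CPM (0.30, SE 0.068, edgeR adjusted p = 0.0019). Both rose, and counts of Rpl22l1 were 27.1% ± 0.59 of those of Rpl22 in the deficient group and 28.4% ± 1.16 in the positive group (SD, n = 3, exact permutation p = 0.3), with overlapping ranges.

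Rpl7l1 rose from 79.5 ± 5.11 to 99.8 ± 2.85 CPM (0.33, edgeR adjusted p = 0.00067) beside Rpl7, from 1445 ± 141 to 1837 ± 131.4 CPM (0.35, edgeR adjusted p = 0.00208). Their ratio was 5.45% against 5.52% (exact permutation p = 0.9). The ratio of Rps27l to Rps27 was 2.42% against 2.41% (exact permutation p = 1.0), and that of Rps27rt to Rps27 was 5.27% against 4.96% (exact permutation p = 0.2). Rpl36a rose from 342.1 ± 46 to 435.6 ± 24.19 CPM (0.35, edgeR adjusted p = 0.00395), while its intronless copy Rpl36al was at 2.27 ± 0.167 against 2.08 ± 0.519 CPM (0.12, SE 0.219, edgeR adjusted p = 0.639). Of the exonic bases of Rpl36al 24.5% lie under Gm49383, so its level is uncertain. With 3 libraries a group, a p above the threshold does not show that these ratios were equal.

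**Figure D3:**
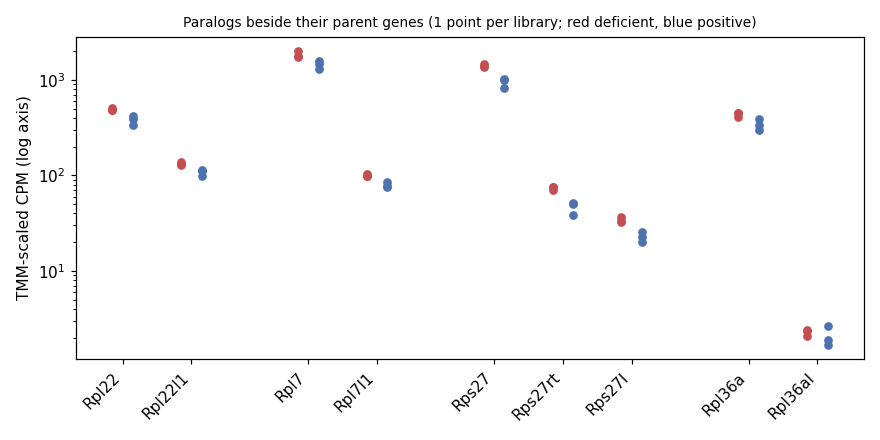
TMM-scaled CPM on a log axis for paralog members beside their parents, with 1 point for each library (red TNFR2-deficient, blue TNFR2-positive). Rpl22l1 lies between 98.4 and 137.2 CPM and follows Rpl22, between 334.9 and 505 CPM, while Rpl36al is near 2 CPM in both groups.

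The tissue-restricted paralogs had few counts and did not pass the filter. Rpl39l, a germ cell form of Rpl39, had 13, 18 and 9 counts in the deficient libraries and 4, 0 and 5 in the positive ones. Its parent Rpl39 rose from 392.7 ± 48.27 to 503.7 ± 39.22 CPM (0.36, edgeR adjusted p = 0.00358). Rpl3l, the form of striated muscle, had 1, 7 and 5 counts against 1, 2 and 0. The counts of Rpl39l did not overlap between groups and those of Rpl3l did. Rpl39l was tested and called higher in 5 alternatives: with no filter, and without deficient library 3 or without positive library 1, 2 or 3. With a library left out it passed the filter only through deficient libraries, the group where its counts were higher. These calls on few counts are therefore no separate support for a rise.

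The size of the rise was related to the length of the transcript. Over the 82 tested members, the log2 fold change and the length of the principal transcript had Spearman's rho of -0.42 (Pearson's r -0.29 with log2 length, or -0.44 without Rps10). The fold change was related to level too, with rho of -0.38 for log2 mean CPM in the positive group. Pearson's r was -0.48, or -0.26 without Rps10. That level also enters the fold change itself, and the parts of length and level were not separated. All points share the same 6 libraries, so these values describe the libraries and have no p. The 26 members under 600 bases had a median of 0.38, the 26 of 600 to 900 bases 0.34, the 16 of 900 to 1200 bases 0.33 and the 14 over 1200 bases 0.26. The 5 abundant members that did not pass have principal transcripts of 1094 to 1938 bases, whereas Rps27, Rps27rt, Rps27l, Rpl37a and Rps21 have 345 to 558 bases. A principal transcript is chosen by annotation and need not be the form expressed in these libraries. Length related to fold change in the whole table too, with rho of -0.30 over 16623 genes and union exonic length.

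When each library's relation to exonic length was removed by offsets, 67 members remained higher and 0 were lower. The members' median was then 0.24, beside 0.11 over all genes, of which 38.8% were higher. The 9 that missed the threshold were Rpl10, Rpl10a, Rpl12, Rpl13a, Rpl15, Rpl24, Rpl7a, Rps18 and Rps7. The medians of the length classes were then 0.28, 0.24, 0.22 and 0.22, and rho with principal transcript length was -0.37. With union exonic length, the length used for the offsets, rho over the members went from -0.29 to -0.08. The log2 fold changes of Rpl10a, Rpl13a, Rpl22l1, Rpl36a, Rpl39 and Rps6 were then 0.13, 0.16, 0.17, 0.22, 0.24 and 0.14. Some other members had greater values with the offsets. Rps24 went from 0.43 to 0.63, Rps15a from 0.31 to 0.52, Rps19 from 0.34 to 0.41 and Rps3 from 0.28 to 0.33. The exonic length of Rps24 is 6256 bases and that of Rps15a 6270, against principal transcripts of 1613 and 640 bases. The cause of the relation to length was not tested.

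**Figure D4:**
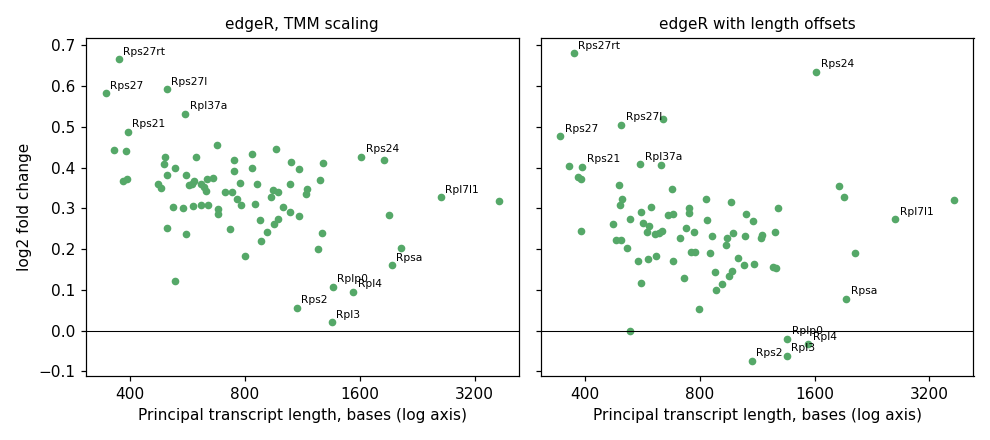
Log2 fold change against principal transcript length (log axis, bases) for 81 tested members (Rps10 not drawn), without and with offsets for gene length; each point is 1 gene. The Rps27 genes, Rpl37a and Rps21 lie at the upper left and Rpl3, Rps2, Rpl4, Rplp0 and Rpsa at the lower right in both panels.

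Reads of this family can be lost to or gained from copies. The table held 257 rows named as pseudogenes of these genes, and 255 of them had a parent among 58 members. Of 170 tested, 90 were higher and 1 was lower, where 35.1% of all tested genes were higher and 34.2% lower. A smaller part of these rows than of the members was called higher. The median log2 fold change of the 170 was 0.36, close to that of the members. Counts of all 257 rows were 9.99% ± 0.082 of the members' counts in the deficient group and 9.97% ± 0.101 in the positive group (SD, n = 3, exact permutation p = 0.8). Rpl21-ps15 held more counts than its parent, at 197% and 205% of Rpl21, so Rpl21 is uncertain. Of 14 members with under 30% of their 50-base words shared with other genes 13 rose (median 0.34). Of 34 with 30 to 60% shared 32 rose (median 0.36), and of 34 with more 31 rose (median 0.34). The medians of these classes were thus close to each other, and the part of read assignment in the rise was not tested. With the counts of pseudogenes added to their parents, 76 members were higher and the median was 0.35.

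Other genes of the ribosome and its making were tested in the same fit, where 35.1% of all tested genes were higher and 34.2% lower. Fau encodes a ribosomal protein fused to a ubiquitin-like protein, and Rack1 is a scaffold on the small subunit. Fau rose from 576 ± 87.7 to 877.4 ± 49.4 CPM (0.61, edgeR adjusted p = 0.00016). Rack1 was at 1218 ± 20.2 against 1099 ± 91.7 CPM (0.15, edgeR adjusted p = 0.0684). Of 15 elongation factors and other genes with TOP messages, 6 rose and 4 fell, with a median of 0.12. The initiation factor Eif4b fell by 0.53 (541.9 to 374.8 CPM, edgeR adjusted p = 4.84e-06) and the poly(A)-binding protein Pabpc1 fell by 0.42 (1214 to 906.6 CPM, edgeR adjusted p = 5.02e-05). The elongation factors Eef1a1 and Eef2 were among the 4 that fell, and Tpt1 and Eif3f among the 6 that rose. Of 6 tested host genes of small nucleolar RNAs 5 rose and 1 fell (median 0.34), led by Snhg8 (0.54) and Snhg12 (0.46). The fall, of Snhg1, missed the threshold under upper-quartile scaling, with no filter and without any 1 library other than positive library 1. Of the elongation and TOP list, 2 genes fell without deficient library 1 or 3, in place of 4. With length offsets Pabpc1 fell by 0.19.

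Ribosome assembly factors and RNA polymerase I genes were split. Of 30 biogenesis genes 6 rose and 11 fell (median 0.01). Mdn1, a long AAA ATPase that strips factors from the pre-60S particle, was at 41.7, 43 and 46.4 CPM against 391.4, 245.2 and 230.3 CPM, and fell by 2.73 on the log2 scale (edgeR adjusted p = 9.7e-08). Tsr1, a factor of 40S maturation, fell by 2.39 (40.99 to 7.82 CPM, edgeR adjusted p = 1.11e-08). Of 14 genes of RNA polymerase I, which makes ribosomal RNA, 4 rose and 6 fell (median 0.00 after rounding), and its large subunits Polr1a and Polr1b fell by 1.26 and 0.89 (edgeR adjusted p = 1.87e-07 and 2.18e-07). With length offsets Polr1a fell by 0.745. These counts stand beside 35.1% higher and 34.2% lower over all tested genes, and the difference from the ribosomal proteins was not tested.

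Of 16 genes of the mTORC1 pathway 5 rose and 8 fell (median -0.19), beside 35.1% higher and 34.2% lower over all tested genes. With length offsets 8 rose, beside 38.8% of all tested genes. Larp1, the TOP-binding protein, fell by 0.93 (213.2 ± 14.7 to 111.6 ± 4.24 CPM, edgeR adjusted p = 2.87e-07), and the S6 kinase Rps6kb2 rose by 1.07 (39.4 to 82.7 CPM, edgeR adjusted p = 2.95e-07). Of 8 tested genes of MYC and its partners 5 rose and 3 fell (median 0.25). Myc was at 100.4, 94.9 and 93.6 CPM against 158.2, 169.5 and 161.7 CPM and fell by 0.76 (edgeR adjusted p = 6.2e-07), and its antagonist Mxi1 rose by 0.89 (edgeR adjusted p = 9.33e-07). The TNFR2-deficient libraries held less Myc and Larp1 and more Rps6kb2 and Mxi1. Whether these bear on the ribosomal protein transcripts was not tested.

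Of 9 tested genes of nucleolar stress and p53, 3 rose and 3 fell (median -0.04). The shares over all tested genes were 35.1% higher and 34.2% lower. The p53 inhibitor Mdm4 fell by 0.996 (621.1 to 311.4 CPM, edgeR adjusted p = 3.53e-06) and Trp53 rose by 0.51 (edgeR adjusted p = 1.91e-05). Of 10 ribosome rescue genes 3 rose and 6 fell (median -0.34), among them Eif2ak4, the kinase GCN2 that senses stalled ribosomes, which fell by 0.72, and the recycling factor Abce1, which fell by 0.64 (edgeR adjusted p = 1.26e-06 and 4.51e-06). With length offsets Mdm4 fell by 0.39 and Eif2ak4 by 0.42, and both stayed past the threshold. Of 78 mitochondrial ribosomal protein genes 64 rose and 1 fell, with a median of 0.47 (SD over genes 0.249). Of 80 tested genes of oxidative phosphorylation 72 rose and 1 fell, with a median of 0.57 (SD 0.319). The cytosolic members' median of 0.35 lay below both, and the difference between the sets was not tested.

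**Figure D5:**
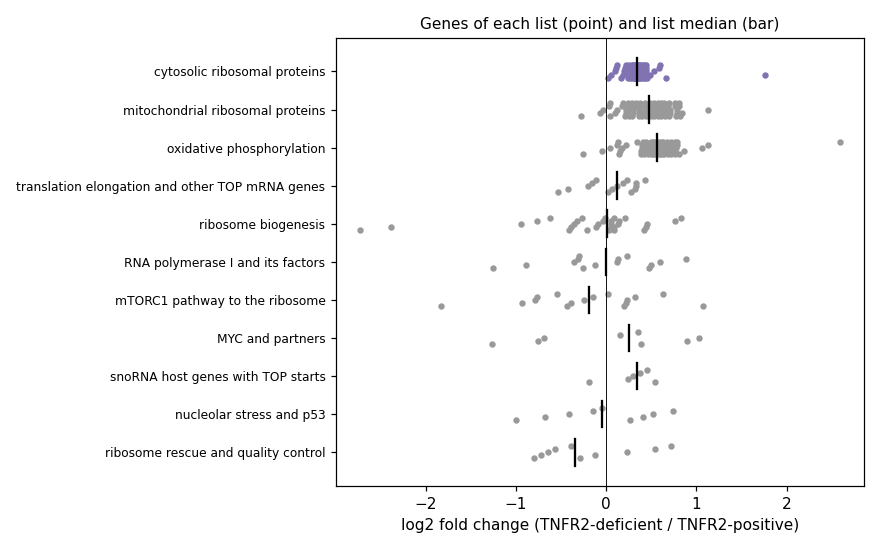
Log2 fold changes of the tested genes of each list (1 point per gene) with the list's median as a bar; cytosolic ribosomal proteins are in purple at the top. Cytosolic and mitochondrial ribosomal proteins and oxidative phosphorylation lie mostly to the right of 0 (medians 0.35, 0.47 and 0.57), while the biogenesis and polymerase I lists spread to both sides.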

How the data were processed

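The authors deposited whole-number counts per gene, without normalization, as the values show. HISAT2 2.1.0 and GRCm39 were used, per the submitters' processing notes; how reads were assigned to genes (program, annotation, strand, multiple hits) is not given in the sources used here. Of 32377 identifiers, 30529 had a symbol. Biotypes and lengths came from GENCODE M21, which is of an older build. The quasi-likelihood test of edgeR 4.0.16 in R 4.3.3 was run with TMM scaling on the 17022 genes that filterByExpr kept, with Benjamini-Hochberg adjustment over all of them (threshold 0.05). The common biological coefficient of variation was 7.62%. A fold change's SE is its size over the root of F. The principal transcript was the one ranked best by the annotation's APPRIS label for a gene's main form, with ties going to the lowest identifier. Its length can differ from that of the form expressed, which also bears on CPM per kilobase. Shared sequence was counted in words of 50 bases of each principal transcript.

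Members, lists and tests were chosen with earlier results of these data known. Named were the 6 greatest rises and falls without overlap at 5 CPM or more, paralogs with parents, stalk proteins, members with textbook roles, the 3 highest per length, members not past the threshold, and 2 genes per list by smallest p; the other genes given were picked after their values were seen. A gene that the rule names is not reported here. Alternatives were DESeq2 1.42.0, limma-voom (limma 3.58.1), RLE, upper-quartile and library-size scaling, other filters, a minimum fold, a replicate block, length offsets (splines with 4 degrees of freedom), pseudogene counts added, and leaving out each library.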

Additional observations from a re-analysis of the deposited data

How the results depend on the processing

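Between 62 and 78 members were higher when each library was left out in turn, with medians of 0.26 to 0.41, and 0 were lower in any setting run. DESeq2 called 73, limma-voom 76, RLE scaling 73, upper-quartile scaling 77, library size alone 74, no filter 78 of 84 and a filter of 1 CPM 76. Against a minimum fold of 1.5, 1 member, Rps10, and 4405 of all genes were called, in place of 76 and 11802; only 3 members had a fitted fold of 1.5 or more. The labels do not say whether the replicate numbers pair the libraries. Correlations of deviations between libraries of the same number were 0.04, 0.05 and -0.06, which cannot exclude a pairing. With a replicate block 77 members were higher, with Rpsa added (0.16). Rpl3 reversed under DESeq2 and RLE scaling (-0.0118 each) and under length offsets (-0.0609). It also reversed without deficient library 2 (-0.0346) and without positive library 1 (-0.0469). Leaving out any other library gave 0.0324 to 0.0716. Length offsets also reversed Rpl36al (-0.0009), Rpl4 (-0.0333), Rplp0 (-0.0196) and Rps2 (-0.0731); left-out libraries gave -0.0115 to 0.1075 for Rps2 and -0.0043 to 0.34 for Rpl36al. None of these 5 genes passed the threshold. The difference in share of counts was 1.01 to 1.62 points with a library left out.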
